A study of Mus musculus with 6 samples.

Results

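The 46 genes described here encode the machinery that licenses replication origins, unwinds and copies DNA, supplies deoxynucleotides and restores chromatin behind the fork. They were taken by name from the deposited gene table for their part in replication, without histone genes, and all 46 were among its 18341 genes. The table comes from bulk RNA sequencing of monocytes sorted from subcutaneous tumours of C57BL/6 mice at 13 days after the tumour cells were injected. BAFF tumours grew from cells that overexpressed BAFF, a cytokine best known for keeping B cells alive, and control tumours grew from control cells, whose vector the labels do not describe. The sample labels name B16.F10, a pigmented mouse melanoma line, as the source. There were 3 BAFF tumour libraries and 3 control tumour libraries. The age and sex of the mice, the sorting markers, and whether each library came from a separate animal are not stated. The p-values thus rest on the spread between these samples, which may be technical.

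As background, a mammalian cell loads the MCM helicase onto origins in G1 with the help of ORC, CDC6 and CDT1. At the start of S phase CDC45 and GINS turn the loaded helicase on, polymerase alpha with primase lays primers, and polymerases delta and epsilon extend them with the sliding clamp PCNA. Most of these genes are transcribed under E2F factors late in G1, so their transcripts are abundant in dividing cells and scarce in resting ones. Blood monocytes mostly do not divide.

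Values are CPM as deposited, that is, reads of a gene scaled to the same library total in every library. The listed genes held 61.1% to 66.1% of the library total in BAFF tumour libraries and 39.8% to 65.6% in control libraries, so deposited CPM of different libraries lie on unequal scales. Counts and fold changes are therefore given on the deposited scale and again after median-of-ratios (RLE) factors, which were 1.07, 1.14 and 1.07 for BAFF tumour libraries 1, 2 and 3 and 1.27, 0.904 and 0.670 for control libraries 1, 2 and 3. The transcript CT010467.1, annotated as ribosomal RNA in GENCODE M21, was at 4839, 693 and 5880 CPM in the BAFF tumour libraries, against 299, 27017 and 43052 CPM in the control libraries. Control libraries 2 and 3 stood apart in it, and its part in the results was not tested. Control tumour library 3, which has the smallest factor, therefore reads low on the deposited scale. A library held an estimated 9.64, 27.6 and 10.1 reads per CPM in the BAFF tumour group and 27.3, 7.12 and 4.72 reads per CPM in the controls, and 3 reads, the floor used for a gene near 0, came to 0.109 to 0.635 CPM. Of the 46 genes, 45 lay at or above that floor in all 6 libraries. The exception was Gins3 in control tumour 3. All 12 of the monocyte markers listed (Ly6c2, Ccr2, Csf1r, Lyz2 and others) were detected, and their summed level ran from 11138 to 12700 CPM in BAFF tumour libraries and from 6098 to 11401 CPM in controls.

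Replication transcripts were lower, unevenly so, in the libraries of sorted monocytes from BAFF tumours, and which cells of the sort they came from was not tested. On the deposited scale 9 of the 46 genes fell, 0 rose and 37 did not pass (limma-trend, Benjamini-Hochberg adjusted p under 0.05 over 12824 genes). The 9 were Pole, Uhrf1, Tk1, Chaf1a, Mcm2, Mcm5, Mcm6, Mcm10 and Tyms. Over all tested genes, 3.5% fell and 1.81% rose by the same rule. After RLE factors 29 of the 46 fell, 0 rose and 17 did not pass, where 9.91% of all tested genes fell and 7.18% rose. All 9 genes called on the deposited scale were among the 29. A gene that did not pass is not shown to be level. The median log2 fold change over the 46 genes was -0.53 on the deposited scale, where that of all tested genes was 0.23, and -0.71 after RLE, where that of all tested genes was 0.01. Fold changes are on the log2(CPM + 1) scale, which understates those of low genes, and the ± after each is its SE. On the deposited scale SE and p rest on a spread between libraries pooled over genes, not on the gene's own.

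The libraries themselves showed the same order. In 17 of the 46 genes, every BAFF tumour library lay below every control library on the deposited scale, and in 34 after RLE. Among all tested genes 6.6% and 17.8% did so. No replication gene had all BAFF tumour libraries above all controls on the deposited scale. The share of all tested genes in that opposite order was not taken, so this count only describes. Summed over the 46 genes, RLE-scaled CPM was 386, 392 and 381 in BAFF tumour libraries 1, 2 and 3, against 651, 710.0 and 599 in control libraries 1, 2 and 3. On that scale the BAFF tumour libraries were close to each other and all lay below the lowest control. Deposited CPM summed to 412, 447 and 407 in BAFF tumour libraries 1, 2 and 3, against 825, 642 and 401 in control libraries 1, 2 and 3. Control library 3 thus lay below every BAFF tumour library on the deposited scale. In bulk samples, fewer cycling cells and less of these transcripts per cell cannot be told apart.

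**Figure D1:**
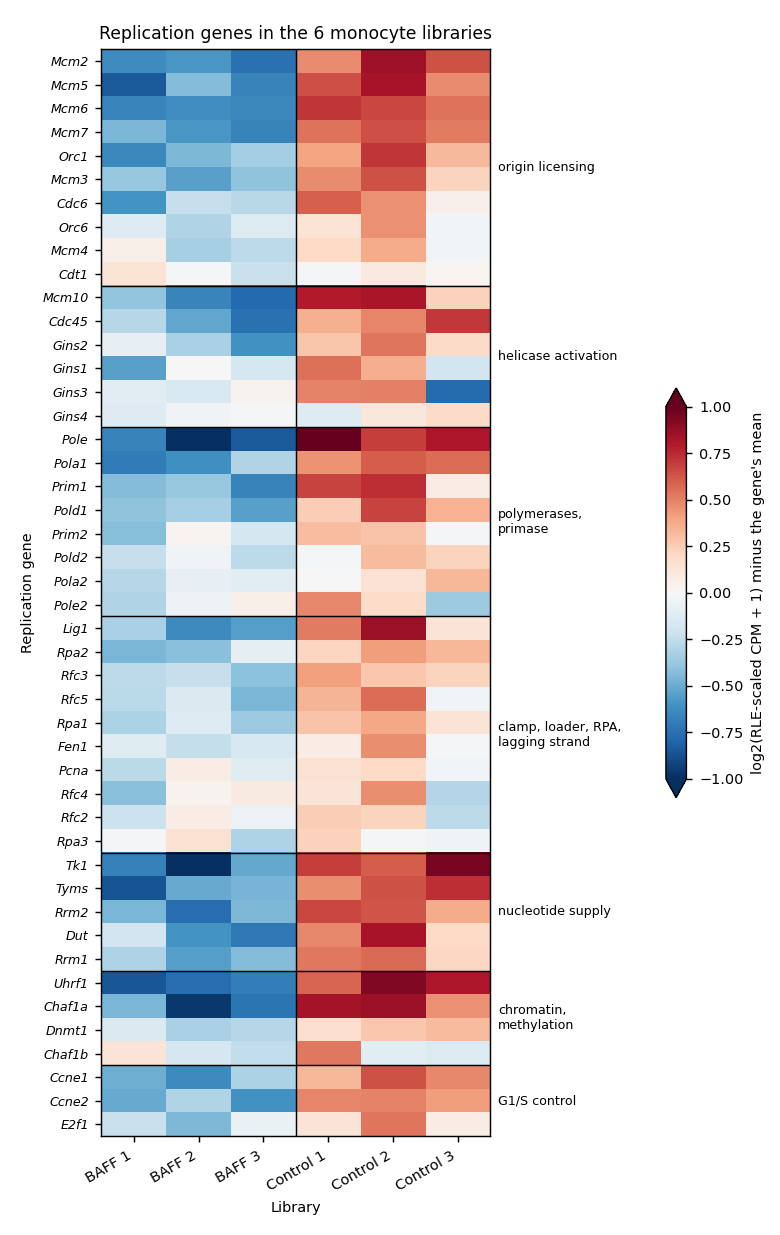
Level of each of the 46 replication genes (rows, grouped by role) in the 6 libraries (columns), as log2(RLE-scaled CPM + 1) minus the gene's mean over the libraries, with blue for below the mean and red for above. The 3 BAFF tumour columns are blue for most genes and the 3 control columns red, while Cdt1 and Gins4 are pale throughout.

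The deposited-scale calls depended on the libraries used. The number of replication genes that fell was 3, 1 and 2 without BAFF tumour libraries 1, 2 and 3, and 16, 2 and 23 without control libraries 1, 2 and 3. Among all genes tested in these fits (12591 to 12932), the number that fell moved as well. It was 225, 185 and 131 without BAFF tumour libraries 1, 2 and 3, and 534, 268 and 922 without control libraries 1, 2 and 3. The call of Pole held in all 6 of these fits. Mcm2, Mcm5, Mcm6, Mcm10, Tyms and Uhrf1 missed without BAFF tumour library 1, 2 or 3 or control library 2, at adjusted p values of at most 0.278, 0.356, 0.279, 0.273, 0.373 and 0.0841 in that order. Chaf1a missed without BAFF tumour library 2 or 3 or control library 2 (at most 0.153), and Tk1 without BAFF tumour library 2 (0.129). With RLE factors the same 6 omissions gave 24 to 29 genes that fell, 24 of the 29 fell in all 6 fits, and all 9 genes named above were among these 24. Among all genes tested, 833 to 1172 fell in those RLE fits.

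Origin licensing genes of the ring and its loaders were lower, with exceptions. Mcm2, Mcm3, Mcm4, Mcm5, Mcm6 and Mcm7 encode the ring-shaped helicase core, Orc1 and Orc6 belong to the origin recognition complex, and Cdc6 and Cdt1 load the ring. Of these 10 genes 3 fell on the deposited scale and 7 after RLE. Mcm2 stood at 10.6, 11.7 and 9.67 CPM in BAFF tumour libraries 1, 2 and 3, against 28.4, 26.5 and 16.9 CPM in control tumour libraries 1, 2 and 3. Mcm2 gave a log2 fold change of -1.07 ± 0.32, adjusted p = 0.0198, and after RLE -1.31 ± 0.13, adjusted p = 9.03e-05. The groups did not overlap, and control library 3 was the lowest control. Mcm5 was measured at 9.85, 14.3 and 11.3 CPM in the BAFF tumour libraries, against 35.0, 28.4 and 16.3 CPM in the control libraries (log2 fold change -1.06 ± 0.32, adjusted p = 0.0219; after RLE -1.29 ± 0.14, adjusted p = 0.000145). Mcm6 had 17.6, 19.3 and 17.8 CPM in the BAFF tumour libraries, against 56.1, 38.6 and 26.2 CPM in the control libraries (log2 fold change -1.04 ± 0.32, adjusted p = 0.0258; after RLE -1.28 ± 0.10, adjusted p = 3.32e-05). These 3 genes were a little over a factor of 2 lower after RLE, at 2.47-fold for Mcm2, 2.45-fold for Mcm5 and 2.43-fold for Mcm6.

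Mcm7, Mcm3, Orc1 and Cdc6 missed on the deposited scale and fell after RLE (deposited -0.91, -0.64, -0.83 and -0.57), by 1.14, 0.88, 0.95 and 0.74 on the log2 scale (adjusted p = 0.000196, 0.000778, 0.00806 and 0.027). Orc1, with a mean of 1.43 CPM over the 6 libraries, lay at 0.518, 0.797 and 0.888 CPM in the BAFF tumour libraries, against 2.60, 2.53 and 1.27 CPM in the control libraries. It passed the filter of a mean of 1 CPM only through its level in controls. The call of Cdc6 was lost when any library but control tumour 3 was left out (adjusted p at most 0.108). Mcm4, a subunit of the same ring, did not pass at 22.6, 18.1 and 17.9 CPM in the BAFF tumour libraries, against 29.7, 24.0 and 13.3 CPM in the control libraries (log2 fold change -0.12 ± 0.32, adjusted p = 0.855; after RLE -0.36 ± 0.14, adjusted p = 0.11). Its groups overlapped on both scales. Orc6 did not pass on either scale (-0.17 ± 0.31, adjusted p = 0.788 on the deposited scale; after RLE -0.38 ± 0.17, adjusted p = 0.163). Cdt1 lay at 11.8, 11.3 and 8.98 CPM in the BAFF tumour libraries, against 12.4, 9.69 and 6.77 CPM in the control libraries. The fold change of Cdt1 was 0.17 ± 0.31 on the deposited scale and -0.06 ± 0.14 after RLE, the smallest in size of the 46 after RLE.

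The promoter windows of 4 genes are shown. E2F factors are known to bind words such as T-T-T, then C or G at the next pair of positions, then C-G-C. The windows run from 250 bases before to 50 bases after the annotated start (RefSeq, build GRCm38.p6). By rule they are those of the 3 genes with the smallest p after RLE among members whose window holds such a word, followed by that of the member with the largest p. Capitals mark the words TTTCCCGC, TTTGGCGC, TTTCGCGC or TTTGCCGC, read on both strands, and everything else is in lower case. The window of Mcm6 lies at chr1:128359656-128359955, minus strand, Uhrf1 at chr17:56304063-56304362, plus strand, Mcm5 at chr8:75109259-75109558, plus strand and Cdt1 at chr8:122567765-122568064, plus strand.
Mcm6: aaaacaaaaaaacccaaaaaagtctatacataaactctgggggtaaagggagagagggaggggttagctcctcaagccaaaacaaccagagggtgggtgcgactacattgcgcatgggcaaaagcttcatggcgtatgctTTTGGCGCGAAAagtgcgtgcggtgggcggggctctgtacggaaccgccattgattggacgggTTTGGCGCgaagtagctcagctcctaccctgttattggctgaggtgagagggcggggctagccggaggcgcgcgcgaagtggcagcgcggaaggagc
Uhrf1: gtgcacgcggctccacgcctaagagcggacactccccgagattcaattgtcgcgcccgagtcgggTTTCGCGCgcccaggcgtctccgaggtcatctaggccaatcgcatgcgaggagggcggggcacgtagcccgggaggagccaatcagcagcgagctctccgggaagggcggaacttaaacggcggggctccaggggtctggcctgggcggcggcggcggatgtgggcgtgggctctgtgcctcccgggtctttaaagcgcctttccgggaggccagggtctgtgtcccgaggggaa
Mcm5: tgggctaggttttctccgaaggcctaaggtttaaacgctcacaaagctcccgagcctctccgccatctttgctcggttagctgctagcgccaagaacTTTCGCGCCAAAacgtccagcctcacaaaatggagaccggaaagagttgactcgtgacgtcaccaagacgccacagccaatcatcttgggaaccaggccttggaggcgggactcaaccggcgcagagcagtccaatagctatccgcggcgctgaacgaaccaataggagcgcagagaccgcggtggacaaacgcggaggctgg
Cdt1: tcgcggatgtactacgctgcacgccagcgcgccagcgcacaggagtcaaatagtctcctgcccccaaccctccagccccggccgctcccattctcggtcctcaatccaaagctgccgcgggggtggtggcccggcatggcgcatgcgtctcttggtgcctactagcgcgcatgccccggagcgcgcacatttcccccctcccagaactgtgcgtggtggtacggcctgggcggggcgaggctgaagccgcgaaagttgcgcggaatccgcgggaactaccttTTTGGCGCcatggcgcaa

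Counted from 1 at the window's upstream end, the Mcm6 window held TTTGGCGC at bases 141 and 204 and TTTCGCGC on the other strand at base 145, which overlaps the first. The Mcm5 window held TTTCGCGC at base 98, overlapped by TTTGGCGC on the other strand at base 102. The Uhrf1 window held TTTCGCGC at base 66. The Cdt1 window held TTTGGCGC at base 283, past the annotated start, and its fold change after RLE was -0.06. Promoter windows were found for 38 of the 46 members, and in 15 of these genes (39.5%) at least 1 window held a word, as in 15 of 52 other replication pathway genes (28.8%), 496 of the 10983 genes of the deposited table with a window (4.52%) and 704 of all 27025 genes with a window (2.61%). The CCAAT box, spelled CCAAT on either strand, was in 60.5% of the 38, in 42.8% of the table's genes with a window and in 41.1% of all. It was in 50% of the 52 other replication pathway genes. Of the 19 mitosis genes with a window, from the list given below, 84.2% held CCAAT and 10.5% an E2F word. Of the 15 members with an E2F word 12 fell after RLE (median log2 fold change -0.88), and of the 23 without one 14 fell (median -0.64). The split by CCAAT was wider, with 18 of 23 members that hold it falling (median -0.95) and 8 of 15 without it (median -0.58). Both splits leave out the 8 members without a window, Pole among them, of which 3 fell (median -0.43). The same splits were not taken over all genes. A match describes letters in the window, not a bound factor. The part of E2F factors in the differences was not tested, and neither was a link between either word and the fold changes.

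Helicase activation genes were mixed. Mcm10, which helps start the loaded helicase, was at 2.90, 2.39 and 1.97 CPM in BAFF tumour libraries 1, 2 and 3, against 9.48, 6.88 and 3.18 CPM in control tumour libraries 1, 2 and 3. Mcm10 gave a log2 fold change of -1.04 ± 0.31, adjusted p = 0.0193, and after RLE -1.23 ± 0.20, adjusted p = 0.00176. The groups did not overlap. Cdc45, part of the active helicase, had 2.18, 1.81 and 1.28 CPM in the BAFF tumour libraries, against 4.72, 3.79 and 3.39 CPM in the control libraries. Cdc45 fell only after RLE (log2 fold change -0.85 ± 0.30, adjusted p = 0.0785; after RLE -1.03 ± 0.20, adjusted p = 0.00379). The 4 GINS subunits are also part of that helicase. Gins2 was at 3.73, 3.19 and 2.27 CPM in the BAFF tumour libraries, against 6.04, 5.34 and 2.96 CPM in the control libraries. Gins2 fell after RLE (-0.48 ± 0.31, adjusted p = 0.449 on the deposited scale; after RLE -0.67 ± 0.19, adjusted p = 0.0321). That call did not survive leaving out BAFF tumour library 2 or 3 or control library 1 or 2 (adjusted p at most 0.111). Gins1 did not pass (-0.36 ± 0.30, adjusted p = 0.568 on the deposited scale; after RLE -0.48 ± 0.24, adjusted p = 0.209). Gins4 was at 6.84, 7.87 and 7.50 CPM in the BAFF tumour libraries, against 8.09, 7.02 and 5.50 CPM in the control libraries (log2 fold change 0.11 ± 0.31, adjusted p = 0.876; after RLE -0.12 ± 0.15, adjusted p = 0.656). Gins3 lay at 1.14, 1.16 and 1.38 CPM in the BAFF tumour libraries, against 2.74, 1.97 and 0.212 CPM in the control libraries. The last control value is below the floor of 0.635 CPM in that library, and Gins3 did not pass (-0.10 ± 0.30, adjusted p = 0.883 on the deposited scale; after RLE -0.16 ± 0.31, adjusted p = 0.785).

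Of 8 polymerase and primase genes 1 fell on the deposited scale and 4 after RLE. Pole, the catalytic subunit of leading-strand polymerase epsilon, differed most of all 46 genes, at 2.59, 1.96 and 2.17 CPM in BAFF tumour libraries 1, 2 and 3, against 12.6, 7.02 and 5.72 CPM in control tumour libraries 1, 2 and 3. Pole gave a log2 fold change of -1.48 ± 0.31, adjusted p = 0.00021, and after RLE -1.67 ± 0.17, adjusted p = 9.72e-05. Its BAFF tumour libraries all lay below the lowest control, and after RLE it was 3.19-fold lower. Pole2, the accessory subunit of the same enzyme, overlapped between groups at 1.66, 2.30 and 2.42 CPM in the BAFF tumour libraries, against 4.27, 2.31 and 0.963 CPM in the control libraries (log2 fold change -0.06 ± 0.30, adjusted p = 0.927; after RLE -0.20 ± 0.24, adjusted p = 0.623). Pola1, the catalytic subunit of polymerase alpha, was at 7.67, 8.77 and 10.5 CPM in the BAFF tumour libraries, against 21.8, 17.4 and 12.5 CPM in the control libraries (log2 fold change -0.85 ± 0.32, adjusted p = 0.0984) and fell after RLE (-1.08 ± 0.14, adjusted p = 0.000425). Prim1, the catalytic primase subunit, had 2.28, 2.57 and 1.78 CPM in the BAFF tumour libraries, against 7.32, 5.48 and 2.33 CPM in the control libraries. Prim1 also fell after RLE (-0.82 ± 0.31, adjusted p = 0.1 on the deposited scale; after RLE -0.99 ± 0.21, adjusted p = 0.00726). The same held for Pold1, the catalytic subunit of polymerase delta (-0.63 ± 0.31, adjusted p = 0.294 on the deposited scale; after RLE -0.85 ± 0.16, adjusted p = 0.00377). The genes of the accessory or regulatory subunits Pola2, Prim2 and Pold2 did not pass on either scale, at -0.10, -0.17 and -0.14 on the deposited scale and -0.32, -0.38 and -0.35 after RLE.

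**Figure D2:**
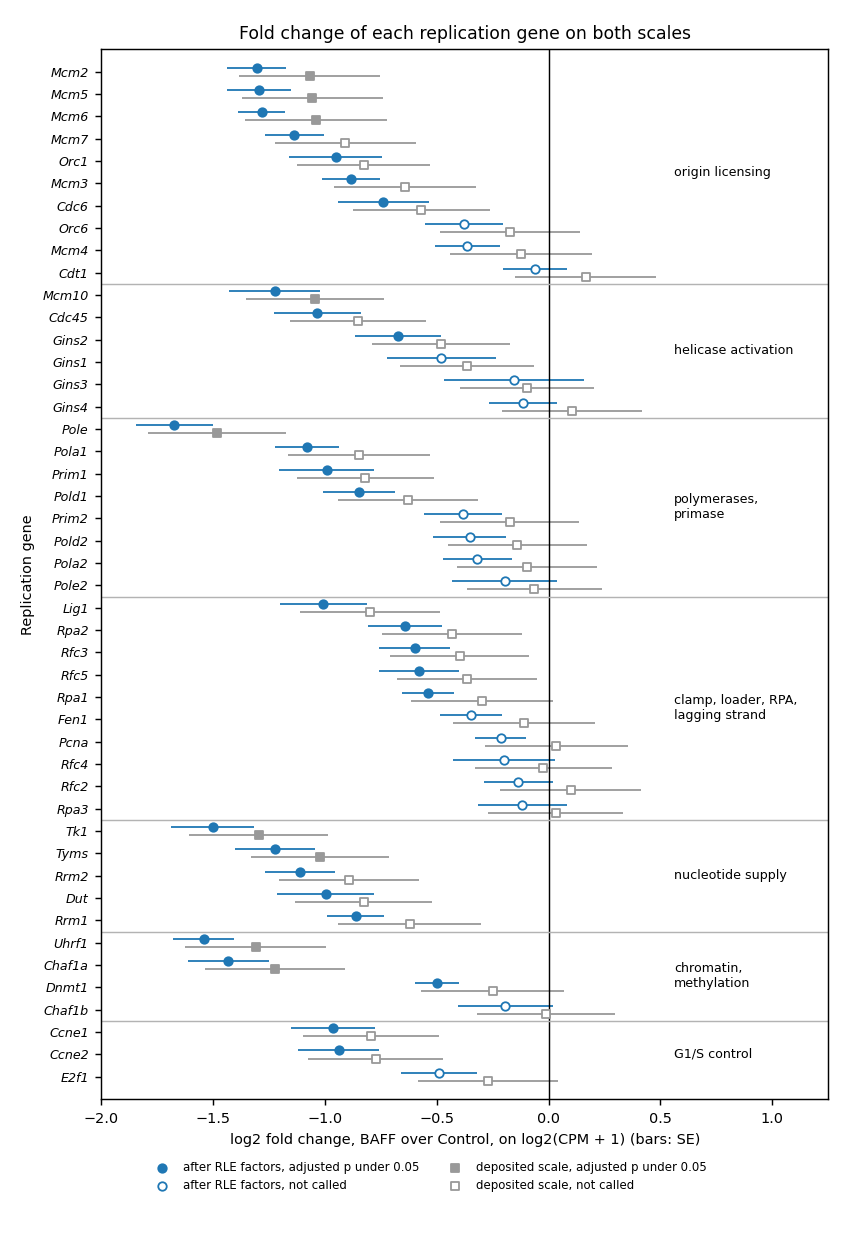
Log2 fold change of BAFF tumour over control tumour libraries for each replication gene, grouped by role, after RLE factors (blue circles) and on the deposited scale (grey squares), with SE bars and filled symbols where the limma adjusted p was under 0.05. After RLE every gene lies left of 0, from -1.67 for Pole to -0.06 for Cdt1, and 29 symbols are filled. On the deposited scale 5 genes lie right of 0.

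Clamp, clamp loader, single-strand binding and lagging-strand genes had the median closest to 0 of the 7 roles (-0.20 on the deposited scale and -0.44 after RLE), with 0 of 10 calls on the deposited scale and 5 after RLE. Pcna, the sliding clamp, lay at 58.0, 79.2 and 64.4 CPM in BAFF tumour libraries 1, 2 and 3, against 92.8, 68.4 and 43.3 CPM in control tumour libraries 1, 2 and 3. Pcna gave a log2 fold change of 0.04 ± 0.32, adjusted p = 0.963, and after RLE -0.21 ± 0.11, adjusted p = 0.23. Its groups overlapped on both scales. Lig1, the ligase that joins Okazaki fragments, had 5.39, 4.42 and 4.44 CPM in the BAFF tumour libraries, against 12.5, 11.5 and 4.87 CPM in the control libraries. Lig1 fell after RLE (-0.80 ± 0.31, adjusted p = 0.125 on the deposited scale; after RLE -1.01 ± 0.20, adjusted p = 0.00429). Fen1, the flap nuclease that acts before it, did not pass (-0.11 ± 0.32, adjusted p = 0.874 on the deposited scale; after RLE -0.35 ± 0.14, adjusted p = 0.111). Among the replication protein A genes, Rpa2 was at 4.04, 4.46 and 5.53 CPM in the BAFF tumour libraries, against 8.38, 7.02 and 4.87 CPM in the control libraries. Rpa2 fell after RLE (-0.43 ± 0.31, adjusted p = 0.507 on the deposited scale; after RLE -0.64 ± 0.17, adjusted p = 0.0201). That call no longer held with BAFF tumour library 1 or 2 or control library 2 left out (adjusted p at most 0.0859). Rpa1 fell too after RLE (-0.30 ± 0.32, adjusted p = 0.651 on the deposited scale; after RLE -0.54 ± 0.12, adjusted p = 0.00765). Rpa3 did not pass (0.03 ± 0.30, adjusted p = 0.963 on the deposited scale; after RLE -0.12 ± 0.20, adjusted p = 0.744). Of the clamp loader genes, Rfc3 was at 4.04, 4.46 and 3.55 CPM in the BAFF tumour libraries, against 8.41, 5.34 and 3.81 CPM in the control libraries. Rfc3 fell after RLE (-0.40 ± 0.31, adjusted p = 0.544 on the deposited scale; after RLE -0.60 ± 0.16, adjusted p = 0.0233). Rfc5 fell likewise (-0.37 ± 0.31, adjusted p = 0.579 on the deposited scale; after RLE -0.58 ± 0.18, adjusted p = 0.0431). The call of Rfc3 was lost without BAFF tumour library 1, 2 or 3 or control library 1 (adjusted p at most 0.0754), and that of Rfc5 without any library but control tumour 3 (at most 0.145). Rfc4, at 2.38, 3.91 and 3.85 CPM in the BAFF tumour libraries, against 4.72, 4.49 and 1.69 CPM in the control libraries, and Rfc2 did not pass on either scale (-0.02 and 0.10 deposited, -0.20 and -0.14 after RLE). Exons of Rfc2 share up to 952 bases with Lat2 on the other strand and those of Rfc4 up to 167 bases with Eif4a2, and without strand their reads cannot be told apart.

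Nucleotide supply was the role in which every gene fell after RLE, 5 of 5, with 2 called on the deposited scale. Tk1, the thymidine salvage kinase, was at 3.32, 2.43 and 3.85 CPM in BAFF tumour libraries 1, 2 and 3, against 12.2, 8.12 and 7.83 CPM in control tumour libraries 1, 2 and 3. Tk1 gave a log2 fold change of -1.30 ± 0.31, adjusted p = 0.00185, and after RLE -1.50 ± 0.19, adjusted p = 0.000292, without overlap between groups. Tyms, thymidylate synthase, had 2.07, 3.15 and 3.06 CPM in the BAFF tumour libraries, against 8.08, 6.60 and 5.29 CPM in the control libraries (log2 fold change -1.02 ± 0.31, adjusted p = 0.0236; after RLE -1.22 ± 0.18, adjusted p = 0.000742). Rrm2, the small subunit of ribonucleotide reductase, which makes deoxynucleotides, stood at 6.01, 4.97 and 6.02 CPM in the BAFF tumour libraries, against 17.0, 11.8 and 7.20 CPM in the control libraries. Rrm2 fell after RLE (-0.89 ± 0.31, adjusted p = 0.0706 on the deposited scale; after RLE -1.11 ± 0.16, adjusted p = 0.000623). Rrm1, its large subunit, was at 21.5, 19.2 and 19.5 CPM in the BAFF tumour libraries, against 46.5, 34.0 and 19.5 CPM in the control libraries. Rrm1 fell as well after RLE (-0.62 ± 0.32, adjusted p = 0.312 on the deposited scale; after RLE -0.86 ± 0.13, adjusted p = 0.000842). Dut, which removes dUTP, fell after RLE (-0.83 ± 0.31, adjusted p = 0.0943 on the deposited scale; after RLE -0.997 ± 0.218, adjusted p = 0.00836).

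Among genes that act on chromatin behind the fork, Uhrf1, which brings the maintenance methyltransferase to newly copied DNA, stood at 7.03, 8.10 and 7.996 CPM in BAFF tumour libraries 1, 2 and 3, against 24.8, 22.7 and 15.4 CPM in control tumour libraries 1, 2 and 3. Uhrf1 gave a log2 fold change of -1.31 ± 0.32, adjusted p = 0.00191, and after RLE -1.54 ± 0.14, adjusted p = 3.93e-05. Dnmt1, that methyltransferase, was at 52.2, 49.0 and 47.3 CPM in the BAFF tumour libraries, against 76.9, 59.0 and 45.3 CPM in the control libraries (log2 fold change -0.25 ± 0.32, adjusted p = 0.704; after RLE -0.50 ± 0.10, adjusted p = 0.00486). Chaf1a, the large subunit of the histone chaperone CAF-1, was at 4.87, 3.33 and 3.85 CPM in the BAFF tumour libraries, against 16.0, 11.7 and 6.35 CPM in the control libraries (log2 fold change -1.23 ± 0.31, adjusted p = 0.00389; after RLE -1.43 ± 0.18, adjusted p = 0.000334). Chaf1b, the next subunit of CAF-1, overlapped between groups at 4.66, 3.84 and 3.36 CPM in the BAFF tumour libraries, against 7.72, 3.23 and 2.33 CPM in the control libraries (log2 fold change -0.01 ± 0.31, adjusted p = 0.986; after RLE -0.19 ± 0.21, adjusted p = 0.591). In the G1/S control group, the cyclin E genes Ccne1 and Ccne2 missed on the deposited scale and fell after RLE. Ccne1 was at 1.55, 1.38 and 1.88 CPM in the BAFF tumour libraries, against 4.21, 3.93 and 2.54 CPM in the control libraries (-0.79 ± 0.30, adjusted p = 0.114 on the deposited scale; after RLE -0.96 ± 0.19, adjusted p = 0.00443). Ccne2 was at 1.45, 1.96 and 1.28 CPM in the BAFF tumour libraries, against 4.68, 3.37 and 2.33 CPM in the control libraries (-0.77 ± 0.30, adjusted p = 0.127 on the deposited scale; after RLE -0.94 ± 0.18, adjusted p = 0.00423). Their groups did not overlap. E2f1, a factor that drives S-phase genes, had 7.26, 6.42 and 8.19 CPM in the BAFF tumour libraries, against 11.3, 10.95 and 5.72 CPM in the control libraries. E2f1 did not pass on either scale (log2 fold change -0.27 ± 0.31, adjusted p = 0.678; after RLE -0.49 ± 0.17, adjusted p = 0.0731).

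**Figure D3:**
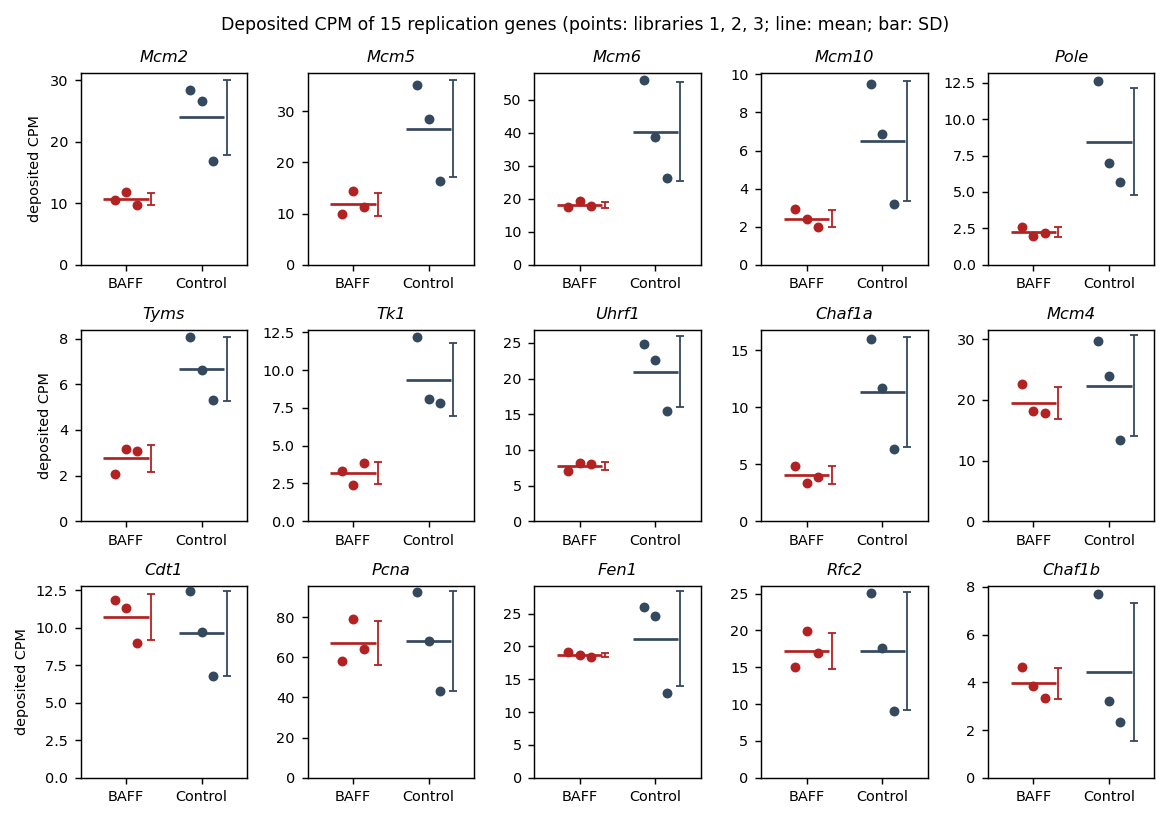
Deposited CPM of 15 replication genes, with points for libraries 1, 2 and 3 of each group, a line at the mean and an SD bar (n = 3). In the 9 genes called on the deposited scale (Mcm2 to Chaf1a) all BAFF tumour points lie below all control points. In Mcm4, Cdt1, Pcna, Fen1, Rfc2 and Chaf1b, chosen after their values were seen, the groups overlap.

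Because some genes of 1 complex were called and others were not, ratios between subunits were taken within each library, where the library scale cancels. Of 41 ratios within 10 complexes, 19 had no overlap between groups and 22 did. Many of these ratios share a gene, and no such share was taken for other gene pairs, so the counts only describe. The design allows no exact permutation p below 0.1 for a ratio, and no p adjusted over the 41 was below 0.216. The ratios named here were chosen after their values were seen. Chaf1a/Chaf1b was 1.044, 0.868 and 1.15 in BAFF tumour libraries 1, 2 and 3, against 2.07, 3.61 and 2.73 in control tumour libraries 1, 2 and 3. Pole/Pole2 was 1.56, 0.850 and 0.896 in BAFF tumour libraries 1, 2 and 3, against 2.96, 3.04 and 5.93 in control tumour libraries 1, 2 and 3, with few reads behind Pole2 in control library 3. Both ratios were lower in every BAFF tumour library than in any control. Mcm2/Mcm4 was 0.468, 0.648 and 0.541 in BAFF tumour libraries 1, 2 and 3, against 0.954, 1.11 and 1.27 in control tumour libraries 1, 2 and 3. Mcm2/Mcm5 overlapped, at 1.07, 0.820 and 0.860 in BAFF tumour libraries 1, 2 and 3, against 0.810, 0.936 and 1.039 in control tumour libraries 1, 2 and 3. Pold1/Pold2, Pola1/Pola2 and Prim1/Prim2 were also lower in all BAFF tumour libraries, averaging 1.12 ± 0.066, 1.32 ± 0.18 and 0.393 ± 0.096 there and 1.63 ± 0.14, 2.30 ± 0.23 and 0.706 ± 0.11 in controls (SD, n = 3 each). For Rrm1/Rrm2 the BAFF tumour libraries were higher, at 3.56 ± 0.31, against 2.78 ± 0.093 in controls (SD, n = 3 each).

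Per kilobase of exon (GENCODE M21 lengths, on deposited CPM), Pcna led both groups with mean levels of 44.3 CPM per kb in BAFF tumour libraries and 44.9 in controls. After it came Dnmt1 (7.86) and Fen1 (7.73) in BAFF tumour libraries, and Mcm3 (9.69), Dnmt1 (9.59) and Mcm6 (9.22) in controls. The lowest level was that of Orc1 (0.244) in BAFF tumour libraries and of Gins3 (0.606) in controls. Across the 46 genes, the RLE fold change had a Spearman rho of -0.10 with log mean CPM and of -0.44 with exon length. Genes are not independent replicates and share the same libraries, so these are descriptions. Without strand, reads in shared exons also leave uncertain the values of Chaf1a (up to 1277 bases shared with Ubxn6), Gins2 (up to 2758 with Gse1), Fen1 (up to 1908 with Gm10143) and, over shorter stretches, Mcm7, Cdc45, Ccne2, Lig1, Orc1, Orc6, Pole, Rfc5 and Tk1, while Pole2 and Rpa1 share exon bases with a gene on their own strand. Pcna and Tyms have named pseudogenes, whose reads could be split from theirs.

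Other genes of the replication pathway, 69 that are not among the 46, gave 2 that fell (2.94%), 0 that rose and 66 that did not pass of 68 tested on the deposited scale, where 3.5% of all tested genes fell. After RLE 26 fell (38.2%, beside 9.91% of all tested genes), 4 rose (5.88%, beside 7.18%) and 38 did not pass, with a median of -0.34. The deposited-scale share that fell and the RLE share that rose were thus no higher than among all tested genes. E2f7, Esco2 and Mcm8, among the 26, passed the filter of a mean of 1 CPM only through their level in controls. E2f7, for example, was at 0.622, 0.870 and 0.987 CPM in the BAFF tumour libraries, against 2.12, 1.97 and 2.75 CPM in the control libraries. The share that fell without such genes was not taken. Clspn, the checkpoint adaptor claspin, was at 1.14, 1.88 and 2.57 CPM in the BAFF tumour libraries, against 7.57, 6.88 and 2.96 CPM in the control libraries (log2 fold change -1.20 ± 0.31, adjusted p = 0.0039; after RLE -1.38 ± 0.23, adjusted p = 0.0019). Fbxo5, an inhibitor of the anaphase promoting complex, also fell on both scales (log2 fold change -0.91 ± 0.30, adjusted p = 0.0499; after RLE -1.04 ± 0.19, adjusted p = 0.00343). On the deposited scale Clspn missed without BAFF tumour library 1 or 2 or control library 2 (adjusted p at most 0.209) and Fbxo5 without BAFF tumour library 1, 2 or 3 or control library 2 (at most 0.371). Timeless, a fork protection gene, and Chtf18, of an alternative clamp loader, fell after RLE (deposited -0.91 and -0.87, after RLE -1.12 and -1.04; RLE adjusted p = 0.00197 and 0.00386). Gmnn, whose product geminin inhibits Cdt1, fell after RLE as well (-0.59 ± 0.31, adjusted p = 0.33 on the deposited scale; after RLE -0.79 ± 0.17, adjusted p = 0.00823). Cyclin D1 gene Ccnd1 did so too (29.0, 47.7 and 43.8 CPM in the BAFF tumour libraries, against 92.5, 89.7 and 51.0 CPM in the control libraries; -0.92 ± 0.32, adjusted p = 0.0679 on the deposited scale; after RLE -1.17 ± 0.17, adjusted p = 0.000676).

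The 4 that rose after RLE were Donson, Slbp, Rb1 and Cdkn1b, and only the call of Cdkn1b held with each library left out in turn (adjusted p at most 0.0197). Donson missed without BAFF tumour library 1 or 2 or control library 2 (at most 0.0658), Slbp without BAFF tumour library 1 or 2 or control library 3 (at most 0.0652) and Rb1 without any 1 of the 6 (at most 0.0868). Cdkn1b, the inhibitor p27 of cyclin E and cyclin A kinases, was at 108, 94.6 and 84.4 CPM in the BAFF tumour libraries, against 74.3, 52.0 and 40.6 CPM in the control libraries (log2 fold change 0.81 ± 0.32, adjusted p = 0.134; after RLE 0.56 ± 0.11, adjusted p = 0.00443), with all BAFF tumour libraries above all controls. Donson, a fork stability gene, had 14.8, 14.5 and 12.8 CPM in the BAFF tumour libraries, against 12.4, 6.74 and 4.87 CPM in the control libraries (0.83 ± 0.31, adjusted p = 0.111 on the deposited scale; after RLE 0.60 ± 0.15, adjusted p = 0.0163). Slbp, the histone messenger binding protein, was at 42.4, 44.7 and 39.7 CPM in the BAFF tumour libraries, against 39.2, 26.5 and 17.4 CPM in the control libraries (0.66 ± 0.32, adjusted p = 0.267 on the deposited scale; after RLE 0.42 ± 0.11, adjusted p = 0.0188). Rb1, the retinoblastoma gene and an E2F repressor, was at 68.00, 73.3 and 71.1 CPM in the BAFF tumour libraries, against 65.8, 45.2 and 34.7 CPM in the control libraries (0.58 ± 0.32, adjusted p = 0.361 on the deposited scale; after RLE 0.33 ± 0.09, adjusted p = 0.0263) and was named after its values were seen. Dna2, a nuclease and helicase of flap processing, did not pass (0.62 ± 0.32, adjusted p = 0.312 on the deposited scale; after RLE 0.38 ± 0.14, adjusted p = 0.0835). Cdkn1a, the inhibitor p21, overlapped between groups at 164, 101 and 199 CPM in the BAFF tumour libraries, against 106, 123 and 77.5 CPM in the control libraries (0.56 ± 0.32, adjusted p = 0.385 on the deposited scale; after RLE 0.31 ± 0.24, adjusted p = 0.415).

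Mitosis genes were lower in the same libraries, and by more. Of 22 listed (Cenpf, Aurkb, Ccnb1, Mki67 and others), 18 fell on the deposited scale and 22 after RLE, with medians of -1.25 and -1.46 beside -0.53 and -0.71 for the replication genes. Among all tested genes 3.5% fell on the deposited scale and 9.91% after RLE. On the deposited scale the 18 became 11, 9 and 6 without BAFF tumour libraries 1, 2 and 3, and 20, 11 and 22 without control libraries 1, 2 and 3, while after RLE all 22 fell in each of these fits. The numbers of all tested genes that fell in these fits are given above beside those of the replication genes. Within a library, the summed CPM of the replication genes was 2.76, 3.04 and 2.86 times that of the mitosis genes in BAFF tumour libraries 1, 2 and 3, against 1.52, 1.56 and 1.56 times in control libraries 1, 2 and 3. That ratio does not depend on library scale, and the groups did not overlap. No test of this difference was made, as the lists were chosen with results known.

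**Figure D4:**
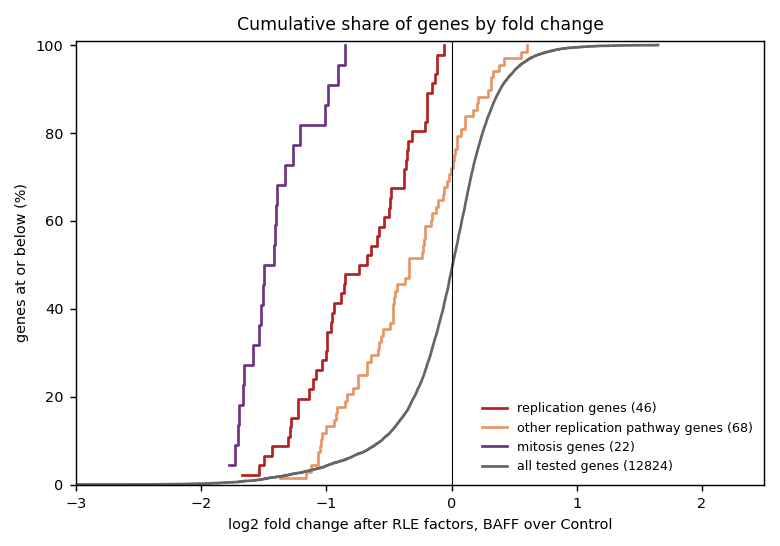
Share of genes (%) at or below each log2 fold change after RLE factors, for the 46 replication genes, 68 other replication pathway genes, 22 mitosis genes and all 12824 tested genes. The curve of the replication genes (median -0.71) lies between that of the mitosis genes (median -1.46) and that of the other pathway genes (median -0.34). Over most of the range all 3 lie left of the curve of all genes (median 0.01). At the lowest fold changes, below those of the 3 lists, only the curve of all genes has begun to rise.

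Markers of other cells moved in the same libraries. Of 13 melanoma markers (Dct, Pmel, Tyrp1, Sox10 and others), none at 0, 12 were tested, and the same 11 fell on both scales, with Mlana not passing. Their summed level was 185, 169 and 89.6 CPM in BAFF tumour libraries 1, 2 and 3, against 771, 466 and 445 CPM in control libraries 1, 2 and 3 (exact two-sided permutation p = 0.1, the smallest this design allows). After RLE the melanoma sum averaged 4.41-fold lower in BAFF tumour libraries and the replication sum 1.69-fold lower. Within a library, the replication sum was 2.23, 2.64 and 4.54 times the melanoma sum in BAFF tumour libraries, against 1.07, 1.38 and 0.903 times in controls. After RLE the melanoma sum was 173, 148 and 83.9 CPM in BAFF tumour libraries 1, 2 and 3, against 609, 515 and 663 CPM in control libraries 1, 2 and 3. The RLE-scaled replication sums of the same libraries were 386, 392 and 381 CPM, against 651, 710.0 and 599 CPM. B16.F10 cells divide and transcribe these genes too, and the part of melanoma RNA in the replication differences was not tested.

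Of the other marker lists, T and NK cell genes showed no call on either scale in 8 tested (summed 18.9 to 29.2 CPM in BAFF tumour libraries, against 12.9 to 34.0 in controls; exact p = 0.6, after RLE 0.9), and neither did progenitor genes in 2 tested (3.75 to 4.15 CPM in BAFF tumour libraries, against 2.33 to 6.66 in controls; exact p = 1, after RLE 0.7). Macrophage markers gave 3 lower of 9 on the deposited scale and 7 after RLE (1641 to 1954 RLE-scaled CPM in BAFF tumour libraries, against 2724 to 3126 in controls). Monocyte markers gave 3 higher of 12 and 6 after RLE (10431 to 11127 RLE-scaled CPM in BAFF tumour libraries, against 7171 to 9101 in controls). Neutrophil markers gave 4 higher of 5 and 1 after RLE, dendritic cell markers 2 higher of 7 on both scales, and endothelial markers 0 and 2 higher of 3. Fibroblast markers gave 0 calls and 1 lower of 6, B and plasma cell markers 1 lower of 2 on both scales, and red cell and platelet markers 0 of 4 on both. Over all tested genes 3.5% fell and 1.81% rose on the deposited scale, and 9.91% and 7.18% after RLE. The exact permutation p of the summed level after RLE was 0.1 for the macrophage, monocyte, neutrophil, dendritic and endothelial lists, as for melanoma. On the deposited scale it was 0.1 for the endothelial list and 0.3 for the other 4. The part of these cell types in the replication differences was not tested.

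**Figure D5:**
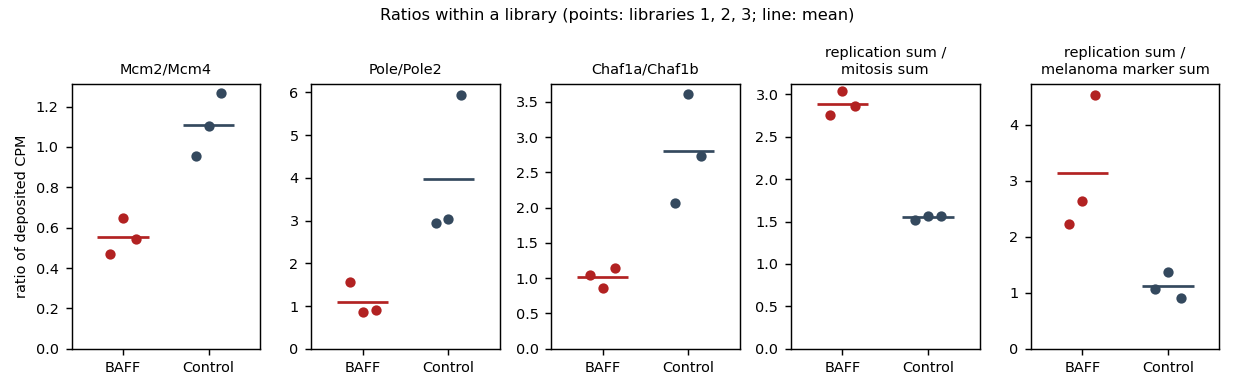
Ratios of deposited CPM within each library, for Mcm2/Mcm4, Pole/Pole2 and Chaf1a/Chaf1b and for the summed replication genes over the summed mitosis genes and over the summed melanoma markers, with points for libraries 1, 2 and 3 and a line at the mean. The 3 subunit ratios are lower in all BAFF tumour libraries, and both ratios of sums are higher there than in any control library.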

How the data were processed

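Libraries were made from total RNA with a TruSeq v2 kit and sequenced on a HiSeq, per the labels' protocols. That kit does not mark strand. Aligners listed in the submitters' processing notes, with no order or role, are Bowtie2 2.2.5 and STAR 2.4.1d, beside the Partek software. Neither the genome build nor the annotation or counting rule is given in the sources used here. The authors deposited 1 table in CPM, identified from its values: among values below 10 reads, 86.9% to 88.7% lay within 0.02 of a whole multiple of 1 step per library. As this was not nearly all, no count model was used. Groups come from the sample titles, and the column spelled Conrol 2 was taken as control 2. No 2 libraries of a group agreed within sampling noise (chi-square per degree of freedom at least 8.11).

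The 12824 genes averaging at least 1 CPM, all 46 members among them, entered limma-trend on log2(CPM + 1) (R 4.3.3, package limma 3.58.1), adjusting p by Benjamini-Hochberg over all of them. On the deposited scale the prior degrees of freedom were infinite, so SEs (0.298 to 0.320 for members) do not reflect a gene's own spread. The method was also run on simulated data with known changes, where it missed most of the smaller ones on both scales. Alternatives were RLE, trimmed-mean and upper-quartile factors, a pseudocount of 0.1, other filters, the replicate number as a block, a depth term, the 4 libraries of low depth, and each library left out. The members, lists and tests were chosen with earlier results of these data known. For each role, values per library are given for the 3 genes with the smallest p, the one with the highest mean CPM and the one with the largest p. Of the other pathway genes, the 4 with the smallest p in each direction and Cdkn1a, Cdkn1b, Ccnd1 and Gmnn are named. Sequences and gene starts are from RefSeq. Floors cover counting error only, while ± values are SEs of the fit or, where so marked, SDs between libraries.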

Additional observations from a re-analysis of the deposited data

How the results depend on the processing

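With trimmed-mean and upper-quartile factors 29 replication genes fell in each fit, as with RLE, and 0 rose in any fit run. All tested genes called were 681 on the deposited scale, 2192 with RLE, 2169 with trimmed-mean factors, 2080 with upper-quartile factors and 316 with a filter at a mean of 5 CPM. Other replication pathway genes gave 2 lower and 0 higher on the deposited scale, 26 lower and 4 higher with RLE or trimmed-mean factors, and 27 lower and 3 higher with upper-quartile factors, and 1 lower with a pseudocount of 0.1 and 0 lower with the filter at 5 CPM. RLE with a depth term gave 28 replication genes lower, 22 and 4 other pathway genes lower and higher, and 1861 genes in all. RLE on the 4 libraries of low depth gave 19, 9 and 2. RLE with a pseudocount of 0.1, chosen after seeing the data, gave 29, 26 and 4, 2125 genes in all, and a median over the replication genes of -0.87.

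No pairing by replicate number was seen: deviations of same-numbered libraries correlated at -0.049, 0.052 and -0.039. These values cannot show whether same-numbered libraries were handled together. With the replicate block on the deposited scale 8 replication genes and 1 other pathway gene fell (Mcm6 and Fbxo5 missed, at adjusted p = 0.0564 and 0.0511), and with the block and RLE 29 replication genes fell, 22 other pathway genes fell and 3 rose, and 1940 genes were called in all.

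Leaving out 1 library on the deposited scale gave 1 to 23 replication genes lower, 0 to 16 other pathway genes lower and 0 to 13 higher, and 170 to 5149 genes called in all. With RLE, leaving out BAFF tumour library 1, 2 or 3 and control library 1, 2 or 3 in that order gave 25, 24, 25, 25, 25 and 29 replication genes lower, 16, 15, 22, 19, 20 and 24 other pathway genes lower, 1, 1, 3, 3, 2 and 3 other pathway genes higher, and 1524, 1349, 1830, 1732, 1699 and 1819 genes called in all. The 5149 came without control library 1, where all tested genes had a median of 0.44. Of 1041 values of single replication genes under the alternatives, 762 stayed on the same side of the threshold, 250 gained a call and 29 lost one, and none that was called changed sign. Of the 762, 93 changed sign with no call in either fit, among them Cdt1, Gins4, Pcna, Rfc2 and Rpa3, which were above 0 on the deposited scale and below 0 after RLE. Control library 3, at 4.72 reads per CPM, sets the least precise values.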
